A study of Mus musculus with 8 samples.

Results

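The difference between the KO effect in cortex and the KO effect in hippocampus was computed for every gene from all 8 samples of the series. Total RNA came from snap-frozen cortex or hippocampus of naive mice on a 129 C57BL6 background, either wild type (WT) or Tet1 knockout (KO), with 2 samples in each of the 4 groups. The RNA was hybridised to 4 Agilent arrays in 2 colours, each with a WT sample in Cy3 and the KO sample of the same tissue and number in Cy5, and no dyes were swapped. The labels give neither the age of the mice nor the part of Tet1 that was removed. They also leave unsaid whether samples of a group came from different mice, or the cortex and hippocampus samples of a number from the same mouse. The spread behind each p-value is that of these samples and may be technical. For each array and gene the ratio is the log2 value of KO minus that of WT, and the difference is the mean of the 2 cortex ratios minus the mean of the 2 hippocampus ratios. A positive difference says that KO lay higher against WT in cortex than in hippocampus, whichever tissue moved. A dye bias of a probe that is equal on all arrays cancels in it. Such a bias does not cancel in levels, where WT is always Cy3 and KO always Cy5. Genotype and dye therefore cannot be told apart wherever levels of WT and KO samples are ordered together.

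Tet1 is an enzyme that oxidises 5-methylcytosine in DNA, a step toward loss of the methyl mark, and it is expressed in neurons. Dissected cortex and hippocampus hold neurons and glia of their own. They can also carry neighbouring tissue: the choroid plexus, the secretory epithelium of the ventricles that makes cerebrospinal fluid, the leptomeninges, the fibroblast sheets on the brain surface, the thalamus below the hippocampus, and the striatum below the cortex. In bulk RNA, fewer cells of a type and less RNA per cell cannot be told apart.

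In all, 16792 genes were tested, each by its brightest probe, and 12761 of them were well above background in all 4 groups. In WT (Cy3) 49.74% to 51.65% of spots were well above background, and in KO (Cy5) 66.63% to 67.17%, and precision is limited by having 4 arrays. Ratios of single arrays correlated across genes at 0.29 to 0.63, lowest for hippocampus replicate 2 with cortex replicate 1. The highest value was between tissues, for hippocampus replicate 1 with cortex replicate 1. Replicates of 1 tissue correlated at 0.52 in cortex and 0.40 in hippocampus, so the arrays did not group by tissue. The ratios of hippocampus replicate 2 also spread most over genes, with an SD of 0.296 against 0.198 to 0.219 on the other arrays. As a check of the tissue labels, genes of the cortical layers were higher in cortex than in hippocampus by a median of 1.058 in WT and 1.102 in KO, and genes of the hippocampal fields were lower by 1.42 and 1.56.

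The promoters of 4 genes from the choroid plexus and leptomeningeal groups, the lists with the largest median differences, are shown first. They are the 250 bases before the start of the gene in the RefSeq table of build GRCm38.p6, read on the strand of the gene from 5′ to 3′. Capitals mark GC boxes (GGGCGG, with CCGCCC for the other strand), TATA boxes (TATAAA, with TTTATA for the other strand) and the core letters bound by OTX factors (TAATCC, with GGATTA for the other strand). No motif overlaps another. Kcnj13 and Aqp1 are choroid plexus genes on chr1:87394730-87394979 (minus strand) and chr6:55336049-55336298 (plus strand). Slc6a13 and Gjb2 are leptomeningeal genes on chr6:121300038-121300287 (plus strand) and chr14:57104703-57104952 (minus strand).
Kcnj13: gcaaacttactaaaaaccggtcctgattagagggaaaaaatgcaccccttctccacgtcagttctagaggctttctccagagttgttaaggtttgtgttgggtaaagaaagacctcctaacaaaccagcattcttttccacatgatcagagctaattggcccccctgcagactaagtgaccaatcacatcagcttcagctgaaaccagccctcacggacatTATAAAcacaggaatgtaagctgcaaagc
Aqp1: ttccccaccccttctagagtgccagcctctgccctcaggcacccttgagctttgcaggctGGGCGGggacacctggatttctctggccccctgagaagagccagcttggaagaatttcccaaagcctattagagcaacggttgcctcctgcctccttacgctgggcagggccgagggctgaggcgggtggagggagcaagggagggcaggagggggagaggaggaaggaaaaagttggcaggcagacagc
Slc6a13: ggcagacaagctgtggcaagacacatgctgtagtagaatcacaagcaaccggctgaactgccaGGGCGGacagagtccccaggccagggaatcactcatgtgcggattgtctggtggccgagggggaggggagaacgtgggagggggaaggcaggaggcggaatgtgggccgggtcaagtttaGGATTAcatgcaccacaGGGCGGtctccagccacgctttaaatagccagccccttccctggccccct
Gjb2: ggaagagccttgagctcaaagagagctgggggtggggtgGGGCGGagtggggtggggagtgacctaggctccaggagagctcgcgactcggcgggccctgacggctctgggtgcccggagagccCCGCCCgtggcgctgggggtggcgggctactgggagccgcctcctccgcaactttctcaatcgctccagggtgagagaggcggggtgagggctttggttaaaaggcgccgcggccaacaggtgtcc
A GC box stood in 9 of the 14 choroid plexus promoters that matched the table (64.3%), in 7 of 16 leptomeningeal ones (43.8%) and in 32.9% of all 27025 promoters of 250 bases, 1 per gene. A TATA box stood in 4 of 14, 2 of 16 and 13%. The OTX letters stood in 0 of 14, 2 of 16 and 6.38%. A match describes these letters in this window and is not a binding site, and a count of 0 says only that the letters are not there.

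No gene passed in the difference. The smallest adjusted p of limma with Benjamini-Hochberg adjustment over all genes was 0.737, and 0 genes (0%) were called. At an unadjusted p under 0.05 there were 453 genes with a higher KO effect in cortex (2.7%) and 181 with a lower one (1.08%). The arrays did not overlap between tissues, with both cortex ratios above both hippocampus ratios, in 2768 genes (16.5%), and both lay below in 2523 (15%). An exact two-sided permutation test of 2 arrays against 2 cannot go below p = 0.3333. With 1 array left out a tissue keeps 1 array, whose error is then taken from the other tissue, so calls of such fits are not counted.

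Large differences ran almost entirely one way. The difference was above 1 in 82 genes (0.488%) and below -1 in 4 (0.0238%), while the median over all genes was 0.01. In all 82 genes the lowest of the 4 ratios was that of hippocampus replicate 2, and in 80 of them the highest of the 4 WT samples was WT hippocampus replicate 2. The highest of the KO samples was KO cortex replicate 1 in 73. In 56 of the 82 both hippocampus ratios were below 0, and in 65 both cortex ratios were above 0. Of the 82, 16 belong to the choroid plexus list, 10 to the leptomeninges, 2 to mural cells, 2 to the thalamus and 1 to the ependyma, and 51 to none of the 20 tissue component lists. Well above background in all 4 groups were 61 of the 82. The 4 genes below -1 were Trh, Cytl1, Dspp and Ecel1, named here after their values were seen. Trh was well above background in 3 groups, Cytl1 in 2, Dspp in 1 and Ecel1 in all 4. Single arrays stood out, with ratios of 4.38 for Cytl1 and 2.02 for Ecel1 on hippocampus replicate 2, and -2.93 for Dspp on cortex replicate 1.

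**Figure D1:**
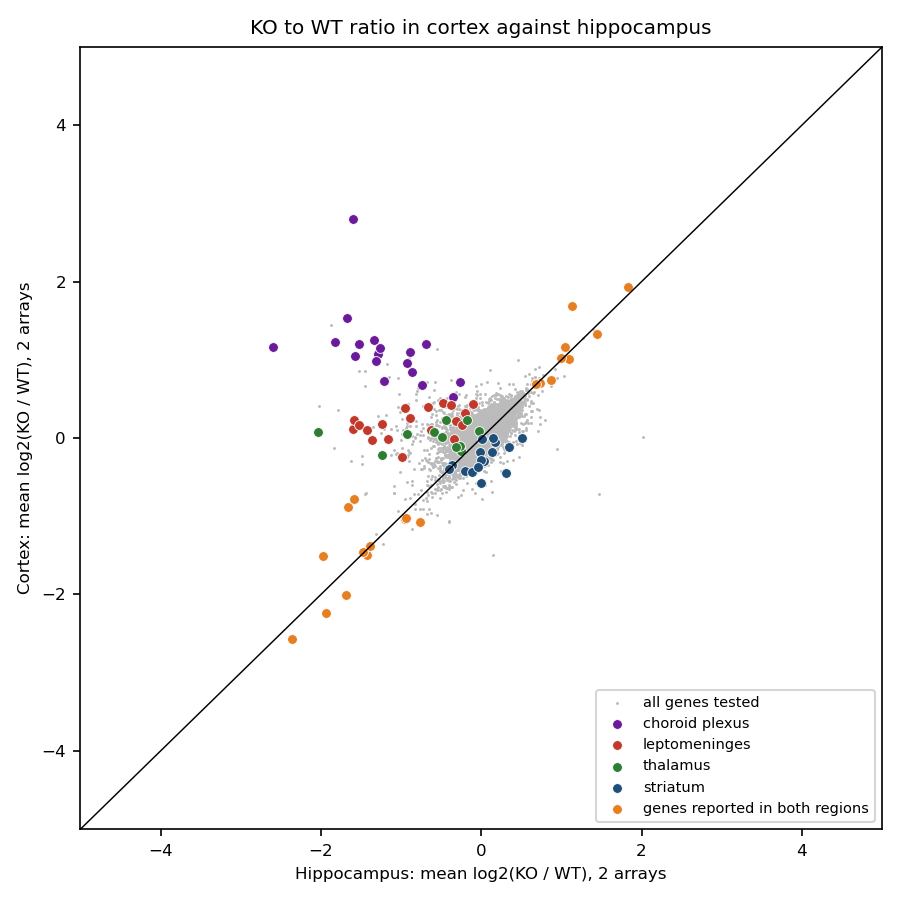
Mean log2 ratio of KO over WT in cortex (vertical axis) against that in hippocampus (horizontal axis), 1 point per gene tested, each a mean of 2 arrays; coloured points are members of 5 gene lists and the diagonal line marks equal ratios in both tissues. Choroid plexus and leptomeningeal genes lie above the line, striatal genes mostly below it, and the genes reported in both regions along it.

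Choroid plexus genes had the largest median difference of the lists. All 18 members of the list had a higher ratio in cortex than in hippocampus, with a median difference of 2.33 against 0.01 for all genes tested, and in 16 of 18 the arrays did not overlap (16.5% over all genes). The median ratio was 0.54 and 1.63 in cortex and 0.09 and -2.56 in hippocampus. All 18 genes were above 0 on both cortex arrays, 12 were above 0 on hippocampus replicate 1, and all 18 were below 0 on hippocampus replicate 2. None was called, and 8 had an unadjusted p under 0.05 in limma, against 2.7% of all genes in that direction. The replicates of each tissue thus lay far apart, and the size of the difference rested on 1 array: without hippocampus replicate 2 the median was 0.92 and without hippocampus replicate 1 it was 3.65. In this list and the later ones, members share the same 4 arrays and can move together, so counts of members are not counts of replicates. The lists were also chosen with earlier results of these data known.

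Ttr encodes transthyretin, the thyroid hormone carrier that choroid plexus secretes into cerebrospinal fluid. Its log2 level was 16.22 and 12.06 in the WT cortex samples, 17.26 and 16.62 in KO cortex, 10.61 and 17.82 in WT hippocampus, and 11.40 and 13.83 in KO hippocampus. WT hippocampus replicate 2 was the highest of all 8 samples and WT hippocampus replicate 1 the lowest. The ratios were 1.04 and 4.57 in cortex and 0.79 and -3.99 in hippocampus, which gave a difference of 4.40 ± 1.86 (SE, n = 2 arrays per tissue; adjusted p = 0.9995 in limma).

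Kcnj13 encodes a potassium channel of the apical epithelial membrane. Its ratios were 0.37 and 1.96 in cortex and -0.53 and -4.67 in hippocampus, a difference of 3.76 ± 1.39. Another Kcnj13 probe, also well above background in all groups, gave 3.56. The ratios of Otx2, a homeobox factor of this epithelium, were 0.62 and 1.85 in cortex and -0.09 and -3.56 in hippocampus (3.05 ± 1.15). For Kl, the anti-ageing hormone and FGF co-receptor klotho, they were 0.42 and 1.99 against -0.43 and -2.62 (2.73 ± 0.85). In each of these 3 genes the cortex arrays lay above the hippocampus arrays.

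The water channel gene Aqp1 had ratios of 0.85 and 1.66 in cortex and 0.02 and -2.71 in hippocampus (2.60 ± 0.89), but its probe cleared background in 2 of the 4 groups. The chloride channel protein gene Clic6 had 0.48 and 1.68 against 0.15 and -2.74 (2.37 ± 0.98). The folate receptor gene Folr1 was 1 of the 2 members whose arrays overlapped, with 0.51 and 1.90 in cortex and 0.58 and -1.95 in hippocampus. Clotting factor gene F5 was the other, with 0.31 and 1.39 against 0.49 and -2.23. The smallest difference belonged to the homeobox gene Msx1, with 0.87 ± 0.26. A probe that is not well above background in a group has only a bound there. Of the 18 genes, 8 were well above background in all 4 groups, and their median difference was 2.55.

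The same genes were also compared within one dye. The median difference of KO cortex over KO hippocampus was 1.93, and that of WT cortex over WT hippocampus was -0.09. The summed linear signal of the 18 probes, in units of 1000, was 107 and 12.3 in WT cortex, 202 and 126.0 in KO cortex, 8.33 and 285 in WT hippocampus, and 9.71 and 24.1 in KO hippocampus. Both KO cortex samples were above both KO hippocampus samples, while the WT samples of the tissues overlapped. A sum of linear signals weighs bright genes most, and in the samples with the largest sums most of the signal was that of Ttr. The part of choroid plexus RNA in the other differences was not tested.

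**Figure D2:**
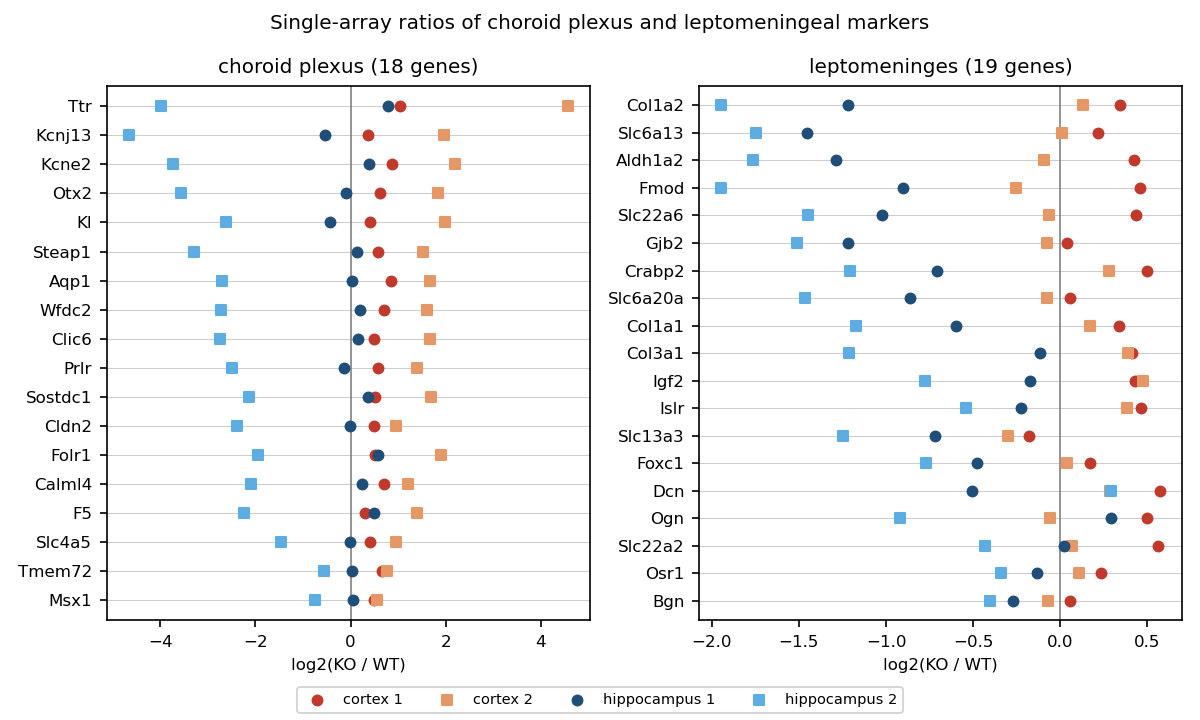
Log2 ratio of KO over WT on each of the 4 arrays for the choroid plexus genes (left) and the leptomeningeal genes (right), ordered by their difference between tissues, 1 point per array. Hippocampus replicate 2 is the lowest array for all 18 choroid plexus genes, while for most leptomeningeal genes both hippocampus arrays lie below both cortex arrays.

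The same order of arrays was seen in 3 further genes with large differences. 1500015O10Rik had ratios of 0.57 and 2.32 in cortex and 0.07 and -3.82 in hippocampus (3.32 ± 1.33). Enpp2, which makes lysophosphatidic acid and is also expressed by oligodendrocytes, had 0.52 and 1.20 against -0.14 and -2.92 (2.39 ± 0.90), and the keratin gene Krt18 0.50 and 1.43 against -0.03 and -2.57 (2.26 ± 0.85). None passed, and in all 3 the lowest ratio was again on hippocampus replicate 2. Ependymal genes, of the ciliated cells that line the ventricles, had a smaller median difference of 0.29, with 8 of 10 members above 0 and 3 of 10 not overlapping (16.5% over all genes). Their median without hippocampus replicate 2 was 0.03 and without cortex replicate 2 it was 0.07, while without cortex replicate 1 it was 0.52 and without hippocampus replicate 1 it was 0.50. The ciliary master regulator gene Foxj1 had ratios of -0.06 and 0.24 in cortex and 0.13 and -0.45 in hippocampus, and these overlapped.

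Leptomeningeal genes had a smaller difference, with replicates closer together. All 19 tested members of the list of 20 had a higher ratio in cortex, with a median difference of 1.07, and in 17 of 19 the arrays did not overlap (16.5% over all genes). The median ratio was 0.41 and 0.04 in cortex and -0.60 and -1.21 in hippocampus, so the hippocampus arrays were on the same side. In 16 of 19 both hippocampus ratios were below 0, and 11 of 19 had both cortex ratios above 0. None was called, and 16 of 19 had an unadjusted p under 0.05 in limma, against 2.7% of all genes in that direction. These members share the same 4 arrays, so the 16 are not independent of each other. The median was 0.85 without hippocampus replicate 2 and 1.43 without hippocampus replicate 1. Of the 19, 15 were well above background in all 4 groups, with a median of 1.15.

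The transporter gene Slc6a13, which carries GABA and taurine across meningeal and other border cells, had the smallest p of all genes tested. Its levels were 11.16 and 11.17 in WT cortex, 11.38 and 11.18 in KO cortex, 11.34 and 12.03 in WT hippocampus, and 9.89 and 10.28 in KO hippocampus. The 4 cortex samples lay between 11.16 and 11.38, and both KO hippocampus samples lay below all others, an order that mixes the dyes. The ratios were 0.21 and 0.01 in cortex and -1.45 and -1.75 in hippocampus, a difference of 1.71 ± 0.14 with a 95% interval of 1.36 to 2.06. In the limma fit across all genes its unadjusted p was 4.88e-05 and its adjusted p 0.737. The probe lies at 121287597 to 121287656 on chromosome 6 in build mm9.

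The gap junction gene Gjb2, which couples leptomeningeal cells, had ratios of 0.04 and -0.08 in cortex and -1.22 and -1.51 in hippocampus (1.34 ± 0.12). Ptgds, whose product makes prostaglandin D2 in leptomeninges and choroid plexus, is not on the list and had 0.47 and 0.09 against -1.17 and -1.40 (1.56 ± 0.16). The retinoic acid synthesis gene Aldh1a2 had 0.42 and -0.09 against -1.29 and -1.77 (1.69 ± 0.23). In these 3 genes both cortex ratios were within 0.5 of 0, and both hippocampus ratios were below -1.

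Collagen genes of these fibroblasts behaved alike. Col1a2 had ratios of 0.34 and 0.13 in cortex and -1.22 and -1.95 in hippocampus (1.82 ± 0.25), and Col1a1 had 0.34 and 0.17 against -0.60 and -1.17 (1.14 ± 0.20). The sulfate transporter gene Slc13a4, outside the list, had 0.36 and 0.44 against -1.55 and -2.50 (2.43 ± 0.31). Its arrays did not overlap, and its difference was 2.91 without hippocampus replicate 1 and 1.95 without hippocampus replicate 2. The organic anion transporter gene Slc22a6 had 0.43 and -0.07 against -1.03 and -1.45 (1.42 ± 0.22), and the retinoic acid binding protein gene Crabp2 had 0.49 and 0.28 against -0.70 and -1.21 (1.34 ± 0.19). For the small proteoglycan gene Fmod the difference was 1.53 ± 0.40, and for the transcription factor gene Foxc1, which meninges need to form, it was 0.73 ± 0.13.

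The exceptions were among the most used fibroblast markers. The proteoglycan gene Dcn had ratios of 0.57 and 0.29 in cortex and -0.51 and 0.29 in hippocampus, so its arrays overlapped, and its difference was 0.54 ± 0.28. For Ogn, a related proteoglycan gene, the ratios were 0.50 and -0.06 against 0.29 and -0.92, and the difference of 0.54 ± 0.42 turned to -0.07 without hippocampus replicate 2. Dcn levels were also higher in all 4 hippocampus samples (13.47 to 14.37) than in the 4 cortex samples (11.96 to 12.54), which was not so for Slc6a13 or Col1a2.

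Within one dye, the leptomeningeal list was higher in KO cortex than in KO hippocampus by a median of 0.86, while in WT the median was -0.18. Centred on the mean of each gene over the 4 samples of one dye, the median level was 0.57 and 0.37 in KO cortex, -0.46 and -0.38 in KO hippocampus, -0.09 and -0.08 in WT cortex, and -0.19 and 0.44 in WT hippocampus. Both KO hippocampus samples were low and both KO cortex samples high, and WT hippocampus replicate 2 stood above the other WT samples. The summed signal of the 19 probes, in units of 1000, was 24.95 and 27.56 in WT cortex, 31.3 and 28.8 in KO cortex, 35.8 and 50.7 in WT hippocampus, and 23.1 and 34.2 in KO hippocampus. In these sums the KO samples of the tissues overlapped, and KO hippocampus replicate 2 was above both KO cortex samples. Such a sum weighs bright genes most. Dcn, which was higher in hippocampus than in cortex in both genotypes, made up a large part of the hippocampus sums. The order of the sums therefore does not describe the list as a whole.

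**Figure D3:**
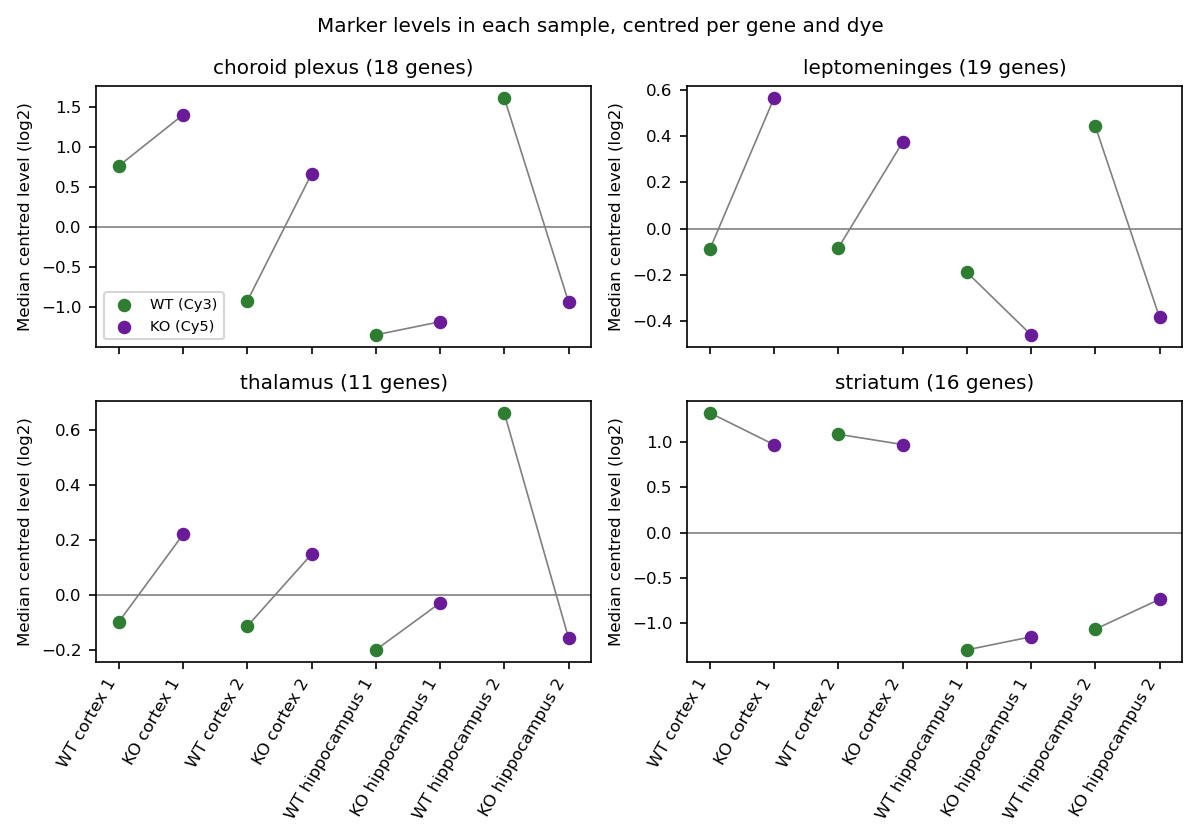
Median level (log2) of the choroid plexus, leptomeningeal, thalamic and striatal genes in each of the 8 samples, after subtracting the mean of each gene over the 4 samples of the same dye; grey lines join the 2 samples of an array, green is WT (Cy3) and purple is KO (Cy5). WT hippocampus replicate 2 is the highest WT sample in the choroid plexus, leptomeningeal and thalamic panels, at 1.61, 0.44 and 0.66, and striatal genes are high in the 4 cortex samples.

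Among genes of mural cells, which wrap vessels, 11 of 12 lay above 0 with a median difference of 0.19, and 6 of 12 did not overlap in that direction (16.5% over all genes). The contractile genes of arterial smooth muscle had the largest values. Tagln had ratios of -0.24 and -0.35 in cortex and -1.16 and -2.08 in hippocampus (1.33 ± 0.30), Cnn1 had 0.28 and 0.09 against -0.70 and -1.14 (1.11 ± 0.17), and Acta2 had 0.03 and -0.09 against -0.69 and -1.31 (0.97 ± 0.21). Vtn, a pericyte marker, had 0.17 and 0.18 against -0.46 and -0.87 (0.84 ± 0.15). The pericyte genes Pdgfrb and Rgs5 had smaller differences of 0.16 ± 0.11 and 0.22 ± 0.14, and their arrays overlapped. The list median was 0.10 without hippocampus replicate 2 and 0.48 with the processed signals of the scanner software. Of the 12, 9 were well above background in all 4 groups, with a median of 0.22.

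Endothelial genes had a median difference of 0.12, with 14 of 15 above 0 and 4 of 15 not overlapping (16.5% over all genes). The tight junction gene Cldn5 had ratios of -0.65 and -0.32 in cortex and -0.62 and -0.70 in hippocampus (0.18 ± 0.13), which overlapped. Without hippocampus replicate 2 the median was 0.03, and without hippocampus replicate 1 it was 0.22. Blood cell genes had a median difference of 0.20, with 8 of 8 tested members above 0 and 2 of 8 not overlapping (16.5% over all genes). Their median was 0.12 without hippocampus replicate 2, 0.52 with genes well above background on all arrays only, and 0.74 with processed signals. Of the 8 blood cell genes, 3 were well above background on all arrays, and 0 of these 3 were without overlap upward (14.9% over all such genes). The haemoglobin gene Hba-a1 had 0.92 and 0.46 in cortex and 0.53 and -0.55 in hippocampus (0.70 ± 0.37). Hbb-b1 had 0.91 and 0.21 against 0.48 and -0.39 (0.52 ± 0.36). Both haemoglobin genes were highest in KO cortex replicate 1 and lowest in KO hippocampus replicate 2, at 11.73 and 9.87 for Hba-a1, and their arrays overlapped.

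Thalamic genes had a median difference of 0.51 that came from 1 array. All 11 tested members of the 14 lay above 0 and 5 did not overlap (16.5% over all genes). The median ratio was -0.05 and 0.06 in cortex and -0.05 and -0.99 in hippocampus. Without hippocampus replicate 2 the median difference was 0.00, and without hippocampus replicate 1 it was 1.12. Of the 11, 9 were well above background in all 4 groups, with a median of 0.67. The summed signal of the 11 probes, in units of 1000, was 43.9 and 46.5 in WT cortex, 44.5 and 45.5 in KO cortex, 38.9 and 73.6 in WT hippocampus, and 36.5 and 34.3 in KO hippocampus. Prkcd, a protein kinase C gene strong in thalamic relay neurons, had levels of 11.54 and 13.37 in WT hippocampus and 11.49 and 10.95 in KO hippocampus, so WT hippocampus replicate 2 was far above the rest. Its ratios were -0.38 and -0.06 in cortex and -0.05 and -2.42 in hippocampus (1.02 ± 0.75), and the difference without hippocampus replicate 2 was -0.17. The slow troponin gene Tnnt1 had -0.10 and 0.21 against -0.13 and -1.72 (0.98 ± 0.51), and the nuclear receptor gene Rora had 0.03 and -0.01 against 0.01 and -0.99 (0.51 ± 0.32).

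Zic1, a zinc finger factor of the thalamus that leptomeninges also express, had the largest difference of the thalamic list. Its ratios were -0.05 and 0.19 in cortex and -1.30 and -2.77 in hippocampus, a difference of 2.10 ± 0.47, so it was below 0 on both hippocampus arrays. Another Zic1 probe, also well above background in all groups, gave 0.52.

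Striatal genes had differences in the opposite direction. Of 16 members, 15 had a lower ratio in cortex, with a median difference of -0.30, and 7 did not overlap (15% over all genes). None was called, and 5 had an unadjusted p under 0.05 in limma, against 1.08% of all genes in that direction. The median ratio was -0.47 and -0.07 in cortex and -0.04 and 0.19 in hippocampus. All 16 genes were below 0 on cortex replicate 1, and 12 were above 0 on hippocampus replicate 2. The median was -0.12 without cortex replicate 1, -0.46 without cortex replicate 2 and -0.19 without hippocampus replicate 2. Of the 16, 12 were well above background in all 4 groups, with a median of -0.32, and 5 of these did not overlap (14.6% over all such genes).

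Tac1 encodes the precursor of substance P in striatal neurons of the direct pathway. Its levels were 13.81 and 13.59 in WT cortex, 13.28 and 13.22 in KO cortex, 10.88 and 11.43 in WT hippocampus, and 11.26 and 11.65 in KO hippocampus. KO was below WT on both cortex arrays and above it on both hippocampus arrays. The ratios were -0.53 and -0.37 in cortex and 0.39 and 0.23 in hippocampus, a difference of -0.76 ± 0.11 (unadjusted p = 0.000717, without passing).

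Drd1a (now Drd1), a dopamine receptor gene of the direct pathway, had ratios of -0.74 and -0.41 in cortex and -0.18 and 0.18 in hippocampus (-0.58 ± 0.17). Drd2, the receptor of the indirect pathway, had -0.08 and -0.02 against 0.18 and 0.17 (-0.22 ± 0.08), and its probe was not well above background in 1 of the 4 groups. The adenosine receptor gene Adora2a had -0.27 and 0.27 against 0.32 and 0.70 (-0.51 ± 0.22). Its probe was not well above background in every group, and its difference was -0.24 without cortex replicate 1 and -2.03 with processed signals. Adcy5, the main striatal adenylyl cyclase gene, had -0.53 and -0.21 against -0.05 and -0.02 (-0.33 ± 0.13), and its other probes gave -0.28. Ppp1r1b, which encodes DARPP-32, was the only member above 0, with 0.02 ± 0.15, and its arrays overlapped. Outside the list, the retinoid receptor gene Rxrg, which had -0.79 and -0.59 in cortex and -0.29 and 0.56 in hippocampus, had the largest difference below 0 among genes well above background in all groups whose arrays did not overlap (-0.82 ± 0.28), while another Rxrg probe, also well above background in all groups, gave -0.18.

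The striatal list was higher in cortex than in hippocampus in both genotypes, by a median of 2.44 in WT and 1.90 in KO. The summed signal of the 16 probes, in units of 1000, was 295 and 243 in WT cortex, 210 and 219 in KO cortex, 48.4 and 51.7 in WT hippocampus, and 43.6 and 52.9 in KO hippocampus. Both KO cortex samples were below both WT cortex samples, while the hippocampus samples overlapped. The signals are Cy5 in KO and Cy3 in WT, so genotype and dye cannot be told apart in this order. The part of dissected striatum in the order of the cortex samples was not tested.

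**Figure D4:**
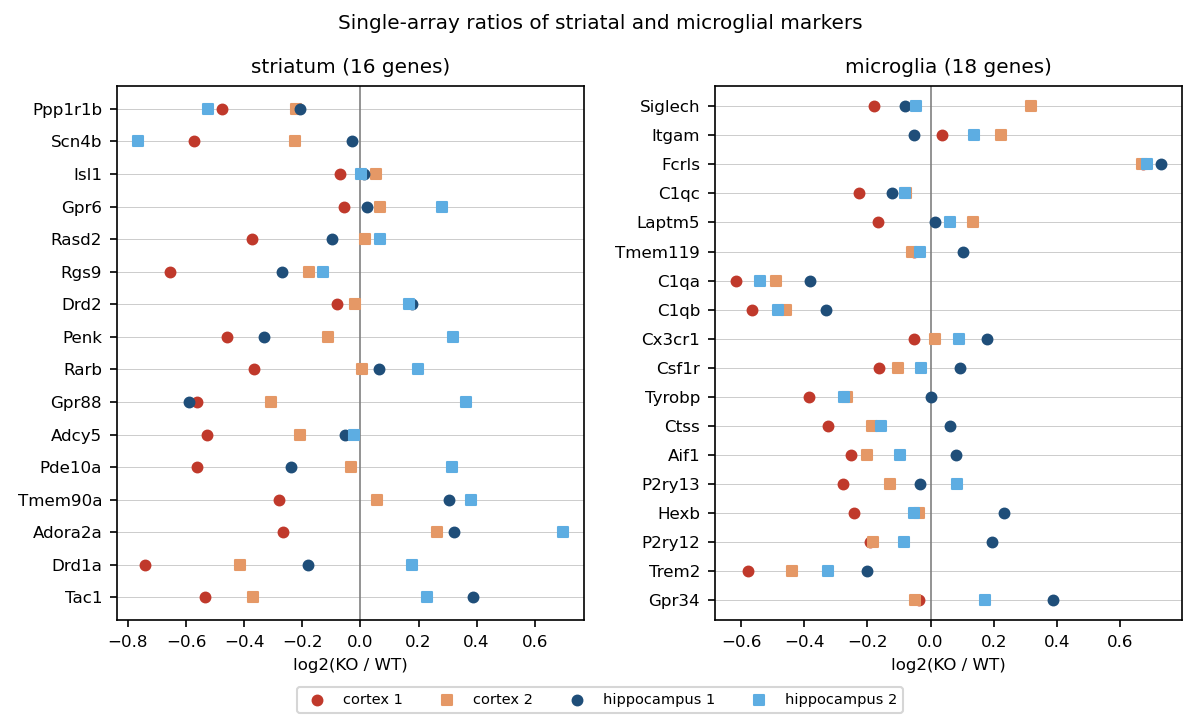
Log2 ratio of KO over WT on each of the 4 arrays for the striatal genes (left) and the microglial genes (right), ordered by their difference between tissues, 1 point per array. Cortex replicate 1 is the lowest array for 13 of the 16 striatal and 14 of the 18 microglial genes, and hippocampus replicate 2 is the highest for 11 striatal genes.

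Microglial genes, of the resident macrophages of brain, had a small difference in the same direction. Of 18 members, 16 lay below 0 with a median of -0.16, and 10 did not overlap (15% over all genes). The median ratio was -0.21 and -0.09 in cortex and 0.04 and -0.05 in hippocampus. The purine receptor gene P2ry12 had ratios of -0.19 and -0.18 in cortex and 0.20 and -0.08 in hippocampus (-0.24 ± 0.12). Csf1r, the receptor for their survival factor, had -0.16 and -0.10 against 0.09 and -0.03 (-0.16 ± 0.09), while its other 2 probes well above background gave -0.07 and 0.04. The lipid receptor gene Trem2 was below 0 on every array, with -0.58 and -0.44 in cortex and -0.20 and -0.32 in hippocampus (-0.25 ± 0.10). Gpr34 had the largest value, -0.32 ± 0.10, and none of the 18 was called. The median was -0.08 without hippocampus replicate 1.

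The genes of neurons, astrocytes and oligodendrocytes had small median differences. All 8 general neuronal genes lay above 0 with a median of 0.13, and 4 of 8 did not overlap (16.5% over all genes). Syt1, the calcium sensor of synaptic vesicles, had ratios of 0.30 and 0.37 in cortex and 0.07 and 0.05 in hippocampus (0.28 ± 0.08). Their median without hippocampus replicate 1 was 0.07. Astrocyte genes had a median of -0.03, which turned to 0.05 without hippocampus replicate 1, and oligodendrocyte genes one of 0.10. Of 19 oligodendrocyte genes, 16 lay above 0, none of these without overlap, and 16 had their lowest ratio on hippocampus replicate 2. Their median ratio was -0.23 and 0.06 in cortex and 0.08 and -0.42 in hippocampus, and the difference turned to -0.07 without cortex replicate 2 and to -0.18 without hippocampus replicate 2. Oligodendrocyte precursor genes had a median of -0.03.

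Genes that mark cortical layers and hippocampal fields were close to 0 as lists. The median difference was -0.03 over 19 layer genes and 0.00 over 17 tested field genes. For Cux2, a factor of the upper layers, it was 0.16 ± 0.08. Myl4 had the lowest value of the layer genes, with ratios of -0.31 and -0.83 in cortex and 0.10 and -0.22 in hippocampus (-0.51 ± 0.21). Wfs1, a marker of field CA1, had 0.17 and 0.12 against -0.28 and -0.25 (0.41 ± 0.08), and KO hippocampus levels of 13.976 and 13.998 were below the other 6 samples. That order of Wfs1 levels mixes the dyes, so genotype and dye cannot be told apart in it. Calb1, a calcium buffer of dentate granule cells, had 0.01 and 0.03 against 0.27 and 0.68 (-0.46 ± 0.15), and another probe gave -0.33. Neither passed. Excitatory neuron genes had a median of 0.08 and interneuron genes one of 0.05, and without hippocampus replicate 1 these turned to -0.08 and -0.11. The layer median turned to 0.03 without cortex replicate 2 and to 0.07 without hippocampus replicate 2, and the field median to 0.08 without hippocampus replicate 1.

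**Figure D5:**
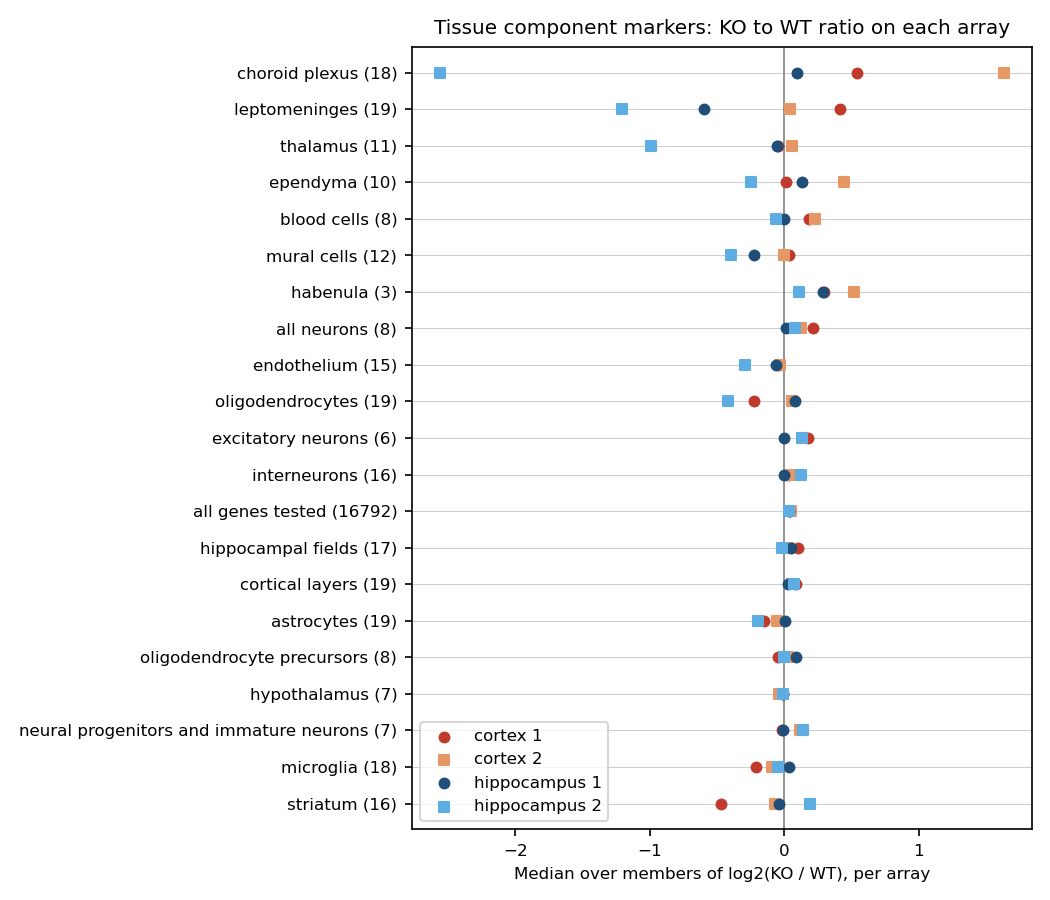
Median log2 ratio of KO over WT on each array for each list of tissue component genes and for all genes tested, ordered by the median difference between tissues; the number of genes tested stands in parentheses, and colour and marker give the array. Choroid plexus and leptomeninges head the list, the striatum closes it, and oligodendrocyte genes lie at -0.23 on cortex replicate 1 and -0.42 on hippocampus replicate 2.

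Habenula genes, with 3 tested, had a median of 0.19, hypothalamic genes one of -0.04 over 7, and genes of neural progenitors and immature neurons one of -0.09 over 7. The habenula median turned to -0.08 with no filter on dim probes and to -0.21 with the strict one, which asks for every sample above background, and the progenitor median turned to 0.06 without cortex replicate 1 and to 0.01 without hippocampus replicate 2. Trh, the thyrotropin-releasing hormone gene on the hypothalamic list, had the lowest difference of all genes, -2.18 ± 1.05. The gene was well above background in 3 of the 4 groups. Its levels were 9.89 and 11.17 in WT cortex, 9.98 and 9.65 in KO cortex, 7.59 and 8.62 in WT hippocampus, and 7.58 and 11.56 in KO hippocampus. KO hippocampus replicate 2 and WT cortex replicate 2 were the highest samples, and the ratios of 0.09 and -1.52 in cortex and -0.01 and 2.94 in hippocampus overlapped.

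Activity-regulated genes, induced quickly in firing neurons, had ratios on both sides. Of 35 members, 23 lay above 0 with a median of 0.08, 7 did not overlap upward (16.5% over all genes) and 6 downward (15%). The 6 genes that the study followed up, which were chosen on these samples and are not independent evidence, all lay above 0 with a median of 0.31, and 2 of 6 did not overlap. Npas4, an activity-dependent transcription factor, had ratios of -1.65 and -1.37 in cortex and -2.25 and -1.70 in hippocampus, so KO was below WT on all 4 arrays, and the difference was 0.46 ± 0.21 with a 95% interval of -0.06 to 0.99. Without cortex replicate 1 the median was -0.05 for the 6 and -0.14 for the 35, and without cortex replicate 2 it was 0.55 and 0.22. Fos had -0.28 and -1.13 against -0.90 and -1.29 (0.39 ± 0.30), Arc had -0.26 and -1.07 against -0.51 and -0.999 (0.09 ± 0.30), and Egr2 had 0.09 and -0.88 against -0.96 and -0.55 (0.36 ± 0.34). In these 3 genes the cortex replicates were farther apart than the tissues. The values of Egr4 and Nr4a2 were 0.27 ± 0.23 and 0.20 ± 0.12.

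Some activity-regulated genes had differences below 0. The matricellular gene Cyr61 (now Ccn1) had ratios of -0.72 and -1.42 in cortex and -0.15 and -0.64 in hippocampus (-0.68 ± 0.28). Btg2, an antiproliferative gene, had -0.91 and -1.02 against -0.66 and -0.69 (-0.29 ± 0.09). Both were below 0 on all 4 arrays and further below in cortex, and neither passed.

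Among the remaining groups, 12 of 16 neuropeptide genes lay below 0 with a median of -0.20 that turned to 0.03 without hippocampus replicate 2 and was -0.35 without hippocampus replicate 1, and 5 did not overlap (15% over all genes). Nts, the neurotensin gene, had ratios of -0.45 and -0.75 in cortex and 0.00 and -0.03 in hippocampus (-0.58 ± 0.12). Cartpt had 0.29 and -0.11 against 0.39 and 1.03 (-0.62 ± 0.25). Interferon-response genes had a median of 0.07 with 17 of 22 above 0 and 9 of 22 not overlapping (16.5% over all genes), but the median was 0.01 with 12 of 22 above 0 without cortex replicate 2, and 0.14 without cortex replicate 1. Of the 22, 14 were well above background in all 4 groups, and 6 of these 14 did not overlap upward (14.9% over all such genes). The list of DNA methylation enzymes and readers had a median of -0.04, with 6 of 20 above 0, which turned to 0.01 without hippocampus replicate 2. Of the Y-linked genes, Ddx3y and Eif2s3y were well above background in all 4 groups, with differences of 0.00 ± 0.15 and -0.10 ± 0.16.

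The difference of the targeted gene was smaller than its error. Tet1 had ratios of -0.13 and -0.13 in cortex and -0.16 and -0.05 in hippocampus, and the 95% interval of the difference was -0.24 to 0.18 (-0.03 ± 0.08). Another Tet1 probe well above background gave -0.03. Whether these probes lie in the removed part of Tet1 is not known, so their values do not check the genotype. The values of its relatives Tet2 and Tet3 were 0.06 ± 0.08 and 0.09 ± 0.09, and the Tet3 probe was well above background in only 2 groups.

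The 21 genes with large KO to WT ratios in both regions, a list chosen on these arrays, had a median difference of -0.03, and 3 did not overlap upward (16.5% over all genes) and 5 downward (15%). KO against WT was called for 22 genes in cortex (0.131%) and 16 in hippocampus (0.0953%), and 13 and 11 of these stood on the list of 21. KO was in Cy5 and WT in Cy3 on every array, so genotype and dye cannot be told apart in these calls. Over the alternatives that kept all arrays, limma called 9 to 642 genes in cortex and 3 to 817 in hippocampus. Fits with 1 array left out are not counted, since a tissue then has 1 array and its error is taken from the other tissue. At an unadjusted p under 0.05 limma held 3911 genes in cortex and 4220 in hippocampus with all arrays. Mtap1b (now Map1b), a microtubule-associated protein gene, had ratios of 1.96 and 1.91 in cortex and 1.71 and 1.95 in hippocampus (0.11 ± 0.11). Pam, which amidates neuropeptides, had -1.30 and -1.46 against -1.43 and -1.35 (0.01 ± 0.10), and Trfr2 (now Tfr2), a transferrin receptor gene, had -1.56 and -1.43 against -1.47 and -1.39 (-0.07 ± 0.09). In these 3 genes the tissue means differed by 0.11 or less.

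The synaptic vesicle gene Sv2c had ratios of 1.60 and 1.76 in cortex and 1.03 and 1.23 in hippocampus, a difference of 0.55 ± 0.11, and its probe cleared background in 2 groups. The protease inhibitor genes Serpina1a and Serpina3i had larger values, 0.82 ± 0.38 and 0.78 ± 0.35, with replicates farther apart. Pgam2, the muscle phosphoglycerate mutase gene, had -1.05 and -1.10 against -0.81 and -0.73 (-0.31 ± 0.08), and the zinc finger gene Zfp874a had -2.53 and -2.61 against -2.35 and -2.37 (-0.21 ± 0.08). The probe of Zfp874a was not well above background in either KO group, and that of Serpina3i was not in KO cortex. Of these 5 genes Serpina1a alone had overlapping arrays, Npas4 was the remaining gene without overlap upward, and none passed.

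Outside the lists, the genes with the smallest p among those below 0 included some with ratios near 0 in hippocampus. The matrix protein gene Abi3bp had ratios of -0.60 and -0.61 in cortex and 0.07 and 0.02 in hippocampus (-0.65 ± 0.08). Agmat, an agmatine hydrolase gene, had -0.63 and -0.56 against 0.05 and -0.02 (-0.61 ± 0.08), and Popdc3, a membrane protein gene, had -0.80 and -0.62 against -0.12 and -0.03 (-0.64 ± 0.10). For Abi3bp the levels were 9.35 and 9.13 in WT cortex, 8.75 and 8.52 in KO cortex, and 7.61 to 7.71 in all 4 hippocampus samples, where the WT probe was not well above background. In limma their unadjusted p-values were 0.000375 for Abi3bp, 0.000643 for Agmat and 0.00126 for Popdc3, and none passed over all genes.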

How the data were processed

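Two-colour Agilent arrays measured labelled RNA of 8 samples. The files of the 2 samples of one tissue and number were byte-identical in 4 of 4 pairs, so each pair shares 1 of 4 arrays, all on 1 slide, and slide or scan gives no batch to test. Tools were R 4.3.3 with data.table (version 1.17.8) and limma 3.58.1.

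The authors deposited a table of log2 values, 1 column per sample, with medians of 8.21 to 8.25. Its direction and scale were set against the scanner files: its ratios correlated at 0.645 to 0.708 with the log10 ratio of Cy5 over Cy3 that Feature Extraction 10.1.1.1 wrote, per the file headers. The submitters' processing notes name limma. What it was used for, and the background correction, is not stated. The scanner intensities, per the file headers, are mean signals, local backgrounds and processed signals, and were used for alternatives. The other marks used, deposited per spot, say whether a spot is well above background, saturated (0 spots) or outlying.

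Of 44397 spots, 1377 controls were left out. Outlying spots were left out by channel and spots of a probe averaged. The brightest probe stood for each symbol over all columns, and a gene was tested if both arrays of 1 or more groups had its probe well above background. That left 16792 of 23688 symbols after 29 genes with outlying spots were left out. Probe positions are those of mm9 in the files, and promoters those of GRCm38.p6. Symbols are those of the array.

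The 4 ratios were fitted with lmFit and eBayes (2 residual and 3.12 prior degrees of freedom), 1 mean per tissue. Adjusted p-values are limma's with Benjamini-Hochberg adjustment over all genes, at 0.05. The fit was tested on simulated data. Gene lists were described by counts and medians without a test. The rule named the largest and smallest-p differences, the first members and the extremes of each list, the TET genes and the genes the study reported. The comparison, the lists and the genes were chosen with earlier results of these data known.

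Alternatives were each array left out, the replicate block, 2 other sources of signal (normexp with offset 50 and loess of span 0.3, or processed signals), loess or median centring of the value table, 2 filters, the mean of probes, a variance trend with robust estimation, and a single-channel fit.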

Additional observations from a re-analysis of the deposited data

Results flagged for a closer look

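Leptomeningeal and blood cell genes as lists had median ratios above 0 on both cortex arrays and below 0 on both hippocampus arrays. These ratios were not centred. Over all genes tested the median ratio was 0.0418 and 0.0468 in cortex and 0.0377 and 0.0344 in hippocampus. The leptomeningeal median on cortex replicate 2, 0.0407, was thus below that of all genes on the same array. For the leptomeninges the medians were 0.41 and 0.04 in cortex and -0.60 and -1.21 in hippocampus, with a median difference of 1.07. For blood cells they were 0.19 and 0.23 against -0.0034 and -0.06, with a median difference of 0.202, and 3 of the 8 genes were well above background in all 4 groups. The blood cell median ran from 0.121 to 0.745 over the alternatives. The difference of a list was not tested.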

How the results depend on the processing

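With 4 arrays, 2 residual degrees of freedom and no dye swap, single differences carry wide errors. Over the alternatives that kept all 4 arrays, except the replicate block, 0 genes were called in the difference by limma. They held 420 to 1107 genes at an unadjusted p under 0.05. With the replicate block 9 genes were called (smallest adjusted p 0.0123), among them Slc6a13, Aldh1a2, Gjb2, Slc22a6, Col1a2, Crabp2, Fmod and Ptgds. Nothing in the labels pairs the replicate numbers, 2 pairs cannot settle it, and deviations of same-numbered ratios correlated at 0.18 across genes. Leaving out single arrays gave 0 to 3 calls and 10333 to 11782 genes without overlap, since fewer arrays overlap less.

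For KO against WT within a tissue, the same alternatives were added after seeing the data. The 22 calls in cortex and 16 in hippocampus became 0 to 3 and 0 to 99 when an array was left out, 144 and 149 with the replicate block, 10 and 3 with normexp and loess, 254 and 578 with processed signals, 55 and 37 with no filter, 9 and 12 with the strict one, 34 and 33 with the variance trend, and 642 and 817 with the single-channel fit. The cause was not tested.

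The leptomeninges median ran from 0.85 to 1.43 and the thalamus median from 0.0035 to 1.12 when an array was left out, and processed signals gave 1.63 for the leptomeninges, where the cause was not tested. The thalamus median of 0.0035 was that without hippocampus replicate 2, where the median over all genes was 0.011, so its sign there is nominal. The replicate block, the variance trend and the single-channel fit change only the error, so 11 of the 14 alternatives can move a difference. In those, the medians of 13 of 27 lists kept their sign, choroid plexus, leptomeninges, thalamus and striatum among them. The other 14 changed sign in 1 or more: astrocytes, oligodendrocytes, excitatory neurons, interneurons, cortical layers, hippocampal fields, habenula, neural progenitors, activity-regulated genes, the genes followed up, neuropeptides, DNA methylation genes, sex-linked genes and the genes reported in both regions. Of 933 values of single genes in those 11, 17 changed sign. When 1 array at a time was left out, Fos ran from -0.0351 to 0.809, Arc from -0.311 to 0.493, Egr2 from -0.123 to 0.843, Egr4 from -0.0742 to 0.613, Ogn from -0.0688 to 1.14, Prkcd from -0.166 to 2.20, Ppp1r1b from -0.141 to 0.177, Mtap1b from -0.0174 to 0.23, Pam from -0.075 to 0.0864 and Tet1 from -0.0816 to 0.0237. Processed signals gave 0.139 for Prox1, 0.0595 for Tet1 and -0.129 for Tet3, and median centring gave -0.00259 for Pam; the cause was not tested.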
